A study of Mus musculus with 46 samples.

Results

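The response of spinalis muscle to dihydrotestosterone (DHT) was measured in mice without α-actinin-3, from 6 KO-DHT and 5 KO-empty libraries. The 11 libraries were chosen by the genotype and treatment in their column names, out of 46 samples in the series, and all 16987 genes of the count table were tested. Every mouse was a female of the C57BL6 strain with *Actn3* deleted in all tissues, the controls included. At 4 to 5 weeks of age each received a silastic tube of 1 cm under the skin, either packed with 10 mg of DHT or empty, and the muscle was taken 6 weeks later. The labels mention no removal of the ovaries. The 5 WT-empty and 6 WT-DHT mice, females of the same strain with *Actn3* intact, were treated in the same way. For the loss of androgen, 6 KO-sham and 5 KO-ORX libraries from gastrocnemius of male C57BL6 KO mice were used. The muscle was taken 12 weeks after a sham operation or orchidectomy (ORX) at 8 to 10 weeks of age. WT-sham and WT-ORX males of the same strain, treated in the same way, entered that fit and share its estimate of spread (23 libraries in all). A further KO-ORX sample had a label but no column of counts.

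DHT is a potent natural androgen. Androgens and glucocorticoids act on genes through DNA sites built of inverted hexamers close to AGAACA. Muscle fibres, satellite cells and connective tissue cells of muscle respond to androgens, which raise muscle mass. α-actinin-3 crosslinks actin filaments at the Z-disc of fast fibres, and mice without it keep the related α-actinin-2.

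The KO-empty libraries held from 42.5 to 47.8 M counts on genes, with a median of 44.1 M. For KO-DHT the total was from 34.9 to 51.7 M, with a median of 44.2 M. Levels are given as CPM, the counts of a gene scaled to a common library total, after TMM normalization, and changes as log2 fold changes with their standard error. A gene was called higher or lower when its q value, the edgeR p-value adjusted over all genes, was 0.01 or less. *Actn3* itself gave 67.5, 83.2, 78.4, 56.6 and 62.1 CPM in the KO-empty libraries and between 61.4 and 77.5 CPM in the KO-DHT libraries (median 66.8). Those levels overlapped and did not pass the threshold (log2 fold change −0.03 ± 0.09 SE, q = 0.87), and the mean in WT-empty muscle was 9669 CPM. Muscle genes such as *Ckm*, *Acta1* and *Ttn* were abundant in every library, and none of 9 muscle markers was called by edgeR, DESeq2 or limma-voom, with 4 at an unadjusted p under 0.05 and a median log2 fold change of −0.02. Over all genes 25.2% had an unadjusted p under 0.05, and every such count below is to be read against that share.

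Several libraries stood apart. KO_Empty_61KR had high levels of interferon-inducible genes, among them *Gm4841*, at 2194 CPM against 7.55, 8.49, 6.31 and 26.9 in the other KO-empty libraries. *Iigp1*, which encodes a GTPase of the defence against intracellular pathogens, reached 1528 CPM there and at most 29.0 CPM in the other KO-empty mice. The sum of 20 such genes, of which *F830016B08Rik* was the most abundant, was 8989 CPM in that library, 229, 261, 301 and 338 CPM in the other controls, and between 225 and 432 CPM with DHT (median 309). Their median log2 fold change was −2.21 with 7 called lower, against −0.15 with only *Gm12185* called when KO_Empty_61KR was left out, so the fall of this family rested on 1 control mouse.

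Granulocyte genes were high in KO_Empty_61KR and KO_Empty_17KR. *Ltf*, which encodes lactoferrin of neutrophil granules, was at 31.4 and 16.4 CPM in these 2 libraries and at 0.0648, 0.0401 and 0.234 CPM in the other 3 controls. *S100a9*, a calcium-binding protein of neutrophils and the most abundant of the list, gave 52.7 and 24.0 CPM there and at most 1.80 CPM elsewhere in the group. The summed level of 9 granulocyte genes was 101, 5.31, 6.19, 205 and 9.77 CPM in the 5 controls and between 7.20 and 11.9 CPM with DHT (median 8.70). Defining markers such as *Mpo*, *Elane*, *Prtn3* and *Ctsg* were absent from the count table. The red cell membrane gene *Slc4a1* showed the same 2 libraries, with 18.0 CPM in KO_Empty_17KR, 27.4 CPM in KO_Empty_61KR and at most 0.681 CPM in the other controls. Among the treated mice, KO_DHT_63KR had high levels of genes of other tissues. The liver gene *Alb* was at 74.3 CPM in it and the brown fat genes *Ucp1* and *Cidea* were at 157 and 60.7 CPM, against medians of 0.609 and 1.20 CPM in the KO-DHT group.

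**Figure D1:**
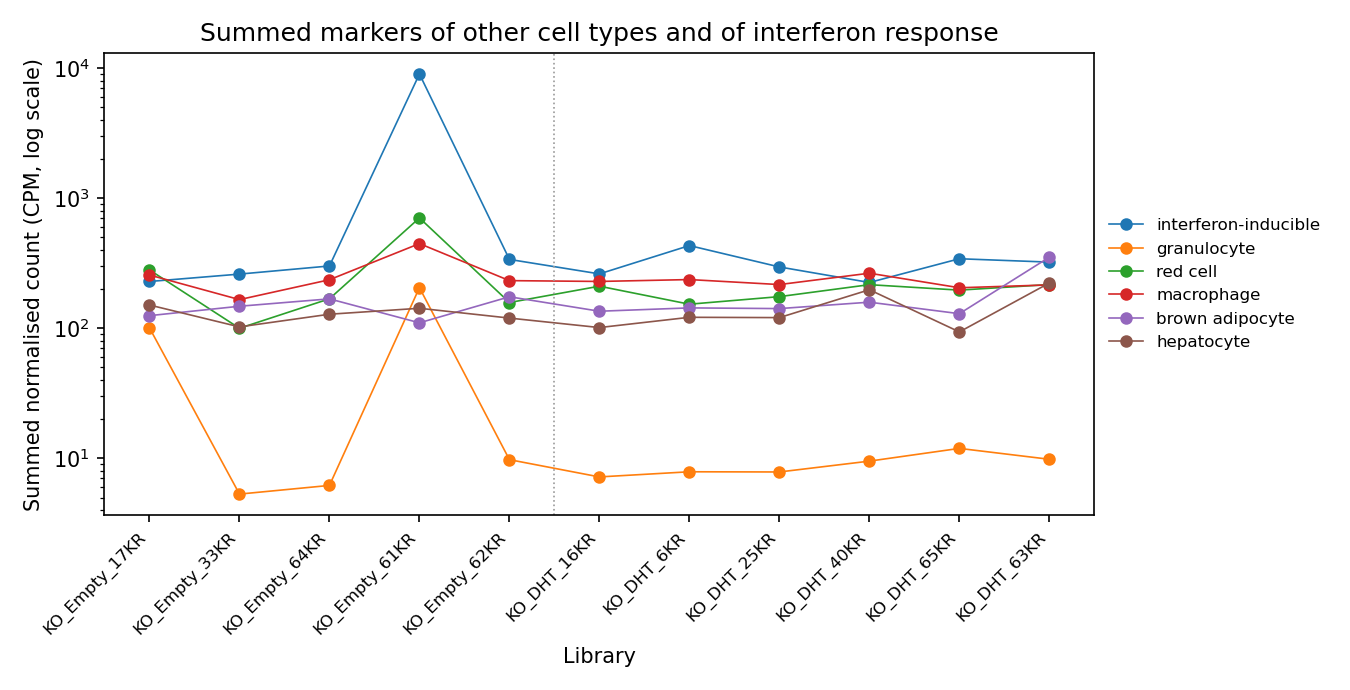
Summed normalised counts (CPM, log scale) of interferon-inducible genes and of markers of other cell types in each KO library. KO_Empty_61KR reached 8989 CPM for the interferon-inducible genes and KO_DHT_63KR reached 352 CPM for brown adipocyte markers.

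By Dixon's criterion, taken gene by gene over 13800 genes, KO_Empty_61KR lay far above the rest of its group for 283 genes (2.05%) and KO_Empty_62KR for 189 (1.37%). KO_Empty_62KR lay far below for 100 genes. KO_Empty_17KR lay far above for 58 genes, the fewest of the controls. In a principal component analysis of the 11 libraries, component 1 held 28.7% of the variance and separated the treatments. KO-empty mice lay between −53.4 (KO_Empty_61KR) and −9.33 (KO_Empty_33KR) on it, and KO-DHT mice between 11.1 (KO_DHT_63KR) and 27.8 (KO_DHT_25KR). Component 2 (13.2%) spread the controls from −36.4 (KO_Empty_61KR) to 38.0 (KO_Empty_33KR).

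Of the 16987 genes, 784 (4.62%) were called, 486 higher (2.86%) and 298 lower (1.75%). The CPM of the groups did not overlap for 1033 genes (6.08%), and 578 of the called genes were among these. Falls were fewer and larger than rises. Genes called higher had a median log2 fold change of 0.53 and genes called lower one of −0.93, against −0.01 over all genes. Of the called genes, 119 lay above a log2 fold change of 1 and 132 below −1. Without KO_Empty_61KR 533 genes were called, and without KO_Empty_61KR and KO_Empty_17KR 368 were, of which 340 were shared with the 784.

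The genes with the smallest q values among those that rose began with polyamine synthesis. *Amd1* encodes S-adenosylmethionine decarboxylase, which makes the aminopropyl donor for spermidine and spermine. It was at 59.9, 71.2, 57.2, 70.9 and 72.8 CPM without DHT and from 375 to 577 CPM with it (median 457). The lowest treated mouse was far above the highest control, a rise of 2.80 ± 0.11 on the log2 scale (q = 2.9e-15). Its close relatives *Amd2* (2.84 ± 0.12, q = 3.5e-14) and *Amd-ps3* (2.90 ± 0.10, q = 1.3e-15) rose as much, but the 3 share sequence and the split of reads between them is uncertain.

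*Cdk19* encodes a kinase of the Mediator complex, which links transcription factors to RNA polymerase. Its level was 15.7, 14.9, 15.4, 17.0 and 18.6 CPM without DHT and between 52.8 and 69.4 CPM with it (median 58.9), with no overlap (1.86 ± 0.08, q = 5.4e-14). *Actr3b*, an actin-related protein of the complex that branches actin filaments, was scarcely transcribed in the controls, at 0.599, 0.734, 0.922, 0.686 and 0.351 CPM. With DHT it was between 10.4 and 14.9 CPM (median 11.5), and every treated mouse was above every control (4.18 ± 0.20, q = 3.2e-13). *C7*, a late component of complement, went from 1.18, 1.53, 1.30, 1.39 and 2.01 CPM to between 26.8 and 39.4 CPM (median 36.2; 4.53 ± 0.27, q = 2.6e-11), again without overlap.

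Near silence in the controls and a clear signal in every treated mouse also marked *Tmem132b*, *Slc30a2* and *Sult1e1*. *Tmem132b*, a membrane protein gene, was between 0.173 and 0.421 CPM in KO-empty and between 8.27 and 13.2 CPM in KO-DHT muscle (5.24 ± 0.31, q = 1.8e-11). Its 2685 counts in treated and 61 in control mice gave a ratio of 38.3 (95% exact Poisson interval 29.7 to 50.2, counting error only). *Slc30a2* encodes a carrier that moves zinc into vesicles and was between 0.240 and 0.621 CPM in the controls and between 7.51 and 18.96 CPM with DHT (4.80 ± 0.31, q = 9.4e-11). *Sult1e1* encodes the sulfotransferase that inactivates oestrogens. It had 0 counts in 4 of the 5 controls and 0.0935 CPM in KO_Empty_62KR, and was between 3.16 and 6.47 CPM in treated mice (median 3.86). With 1206 against 4 counts the ratio was 262 (95% interval 102 to 964, counting error only), and the fitted change was 7.83 ± 0.54 (q = 4e-10).

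Other genes rose from moderate levels. *Bmper*, whose secreted product binds bone morphogenetic proteins, was at 7.70, 6.07, 7.80, 8.27 and 8.69 CPM in KO-empty and between 19.1 and 21.3 CPM in KO-DHT muscle (median 20.5). The 6 treated mice were close together and apart from the controls (1.40 ± 0.09, q = 9.4e-11). *Ace*, the angiotensin-converting enzyme, stood at 24.0, 22.004, 19.1, 25.7 and 31.3 CPM without and between 63.5 and 76.3 CPM with DHT (1.51 ± 0.10, q = 3.9e-10). The transcription factor *Tfcp2l1* was between 2.59 and 4.51 CPM in controls and between 14.7 and 21.6 CPM in treated mice, without overlap (2.36 ± 0.17, q = 6e-10).

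**Figure D2:**
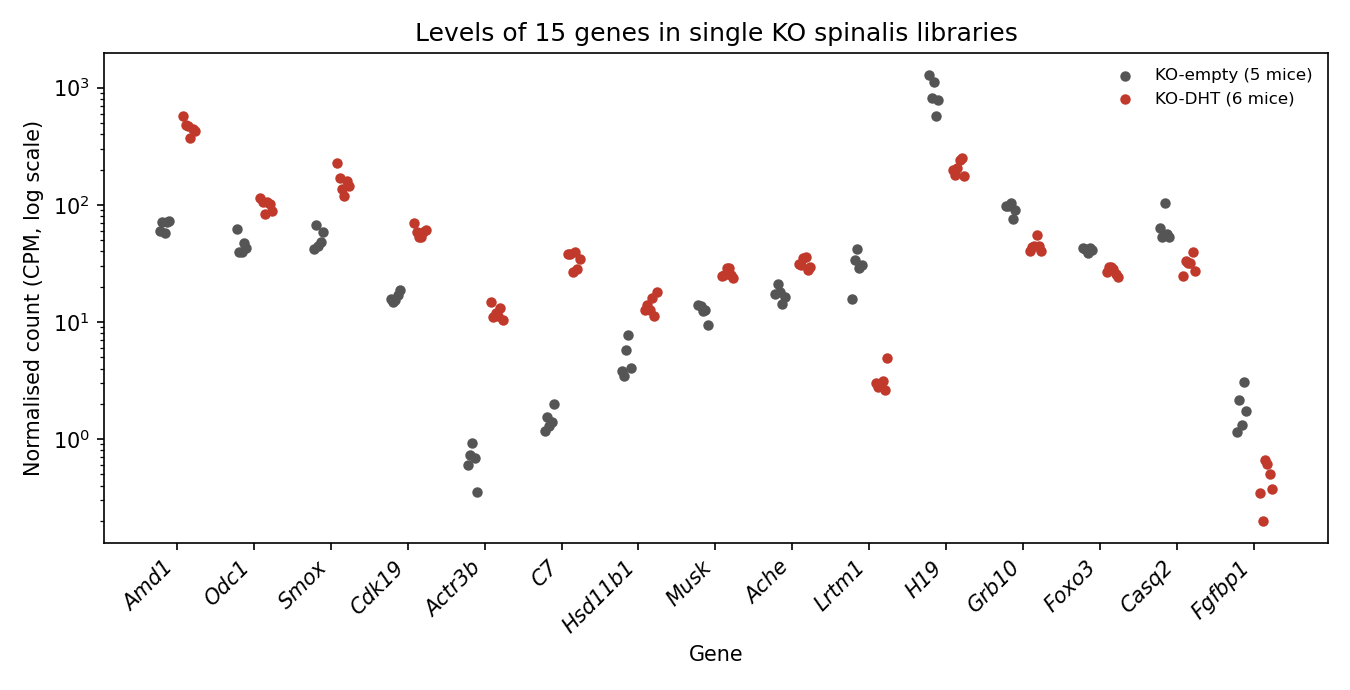
Normalised counts (CPM, log scale) of 15 genes in each of 5 KO-empty and 6 KO-DHT libraries. *Amd1* lay between 57.2 and 72.8 CPM without and between 375 and 577 CPM with DHT. The 15 genes were picked by hand from the called genes, and the groups did not overlap for any of them. Over all called genes this held for 578 of 784, and over all genes for 6.08%.

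Among the genes that fell, *Lrtm1* had the smallest q value. It encodes a membrane protein with leucine-rich repeats, and was at 15.8, 33.6, 42.0, 28.6 and 30.3 CPM in KO-empty and between 2.61 and 4.93 CPM in KO-DHT mice (median 2.97). All treated mice lay below the lowest control (−3.22 ± 0.18, q = 1.3e-11). *H19*, an imprinted noncoding RNA that is abundant in developing muscle, was at 1277, 810.0, 1119, 575 and 784 CPM in the controls. With DHT it was between 175 and 249 CPM (median 202), without overlap (−2.13 ± 0.15, q = 6e-10). *Grb10*, an imprinted gene as well, encodes an adaptor that restrains insulin and IGF-1 receptors. Its level of 96.8, 98.1, 104, 75.5 and 90.0 CPM stood against 40.1 to 54.8 CPM in treated mice (median 43.7), and the fall was −1.06 ± 0.10 (q = 1.7e-07).

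Hormones, receptors and regulators of signalling were also among the falls. *Stc2*, a secreted glycoprotein that blocks release of IGF from its binding proteins, was at 5.26, 3.97, 4.21, 3.43 and 7.15 CPM without DHT. Treated mice had between 0.547 and 1.13 CPM, and none reached a control (−2.42 ± 0.24, q = 1.6e-07). The calcium-sensing receptor gene *Casr* was at 12.3, 10.9, 8.00, 14.9 and 14.3 CPM and, with DHT, between 4.79 and 6.01 CPM (−1.14 ± 0.12, q = 5.4e-07). *Ppp1r1a* encodes an inhibitor of protein phosphatase 1 under control of protein kinase A. It fell from between 23.6 and 28.2 CPM to between 8.07 and 13.7 CPM (−1.31 ± 0.12, q = 5.1e-08). *Neu2*, the sialidase of the cytosol, fell by 1.20 ± 0.13 (q = 4.9e-07), and *Abcc8*, the sulfonylurea receptor of ATP-sensitive potassium channels, by 1.13 ± 0.13 (q = 1.7e-06). For *Sel1l3* (−0.96 ± 0.08, q = 4.7e-09), *Tmem52* (−0.93 ± 0.11, q = 1.7e-06) and the RNA-binding regulator *Arid5a* (−1.27 ± 0.13, q = 1.7e-07) the groups were separate too. In none of the 24 genes with the smallest q values, 12 in each direction, did the groups overlap. These genes were picked by q values of this same comparison, which favours separate groups, so the count is no further evidence. The groups were separate for 578 of the 784 called genes and for 6.08% of all genes.

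Among called genes with a mean of at least 1 CPM in either group, the 6 largest falls were those of genes high in KO_Empty_61KR, of which 4 were high in KO_Empty_17KR too. *Camp*, an antimicrobial peptide of neutrophils, had 7.40 and 14.9 CPM in KO_Empty_17KR and KO_Empty_61KR, at most 0.324 CPM in the other controls and at most 0.168 CPM with DHT. Its change of −6.47 ± 1.33 (q = 0.0026) became −5.27 with q = 0.012 without KO_Empty_61KR. For *Ltf* the change was −5.76 ± 1.33 (q = 0.0062), for *Ngp* −5.56 ± 1.21 (q = 0.0041) and for *Chil3* −5.03 ± 1.18 (q = 0.0071), with groups that overlapped in all 3. Without KO_Empty_61KR their q values were 0.029, 0.021 and 0.037. *Ltf* was called in 4, *Ngp* in 7 and *Chil3* in 3 of the 11 fits that each left out 1 library, and with both high libraries left out none of the 9 granulocyte genes was called and their median was 0.35. *Gm4841* changed by −4.71 ± 1.08 (q = 0.0062), was called in 4 of the 11 fits, and without KO_Empty_61KR had a value of 0.48 (q = 0.47). *Gm12185*, a further interferon-inducible GTPase gene, was at 2.37, 1.86, 2.38, 373 and 7.95 CPM in the controls and between 0.665 and 1.78 CPM with DHT. Here the groups did not overlap and the change was −5.89 ± 1.08 (q = 0.00082), but without KO_Empty_61KR it was −1.48 (q = 0.0085). The gene was called in all 11 fits that left out 1 library and not with limma-voom (q = 0.20) or with the KO libraries alone. *Alb* was called higher (6.60 ± 1.53, q = 0.0064) from KO_DHT_63KR, was called in 5 of the 11 fits, and without that library had a value of 1.87 with q = 0.10. DESeq2 gave no test of *Gm12185*, *Gm4841* or *Alb*.

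The counts of the lists that follow are to be read against the 4.62% of all genes that were called, 2.86% higher and 1.75% lower. How muscle senses the hormone was described by 18 genes for steroid receptors, cofactors and steroid metabolism, of which 2 were higher and 1 lower (median −0.01). *Hsd11b1*, the enzyme that regenerates active glucocorticoid, was at 3.79, 3.43, 5.79, 7.76 and 4.02 CPM in controls and between 11.3 and 18.1 CPM with DHT (1.51 ± 0.17, q = 1.1e-06), with no overlap. *Esr1*, the oestrogen receptor α gene, was at 50.1, 60.4, 51.6, 51.2 and 49.9 CPM and fell to between 35.3 and 42.0 CPM (−0.48 ± 0.09, q = 0.0012). The coactivator gene *Ncoa3* rose slightly (0.32, q = 0.00094) from at most 30.0 CPM to at least 31.5 CPM, but was not called with library-size scaling (0.29, q = 0.023). *Esr2*, *Pgr* and *Srd5a2* were not in the table.

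Polyamines are small cations needed for growth, and androgens control their synthesis in several tissues. Of 15 genes for their synthesis, breakdown and control, 5 rose and 1 fell, with a median of 0.15. When 1 library was left out, that median lay between 0.13 and 0.28. *Odc1*, ornithine decarboxylase, makes putrescine at the start of the pathway. It was at 61.8, 39.6, 39.7, 47.3 and 43.1 CPM in controls and from 83.6 to 114 CPM with DHT, above all controls (1.11 ± 0.12, q = 1.2e-06). *Smox*, spermine oxidase, returns spermine to spermidine and went from 42.0, 67.2, 44.5, 48.0 and 58.3 CPM to between 118 and 229 CPM, again apart (1.62 ± 0.15, q = 1.2e-07). *Sat1*, the acetyltransferase that starts polyamine breakdown and export, moved the other way, from 28.4, 33.3, 28.9, 40.2 and 31.9 CPM to between 18.9 and 25.0 CPM (−0.58 ± 0.11, q = 0.00082). The antizyme *Oaz2*, which inhibits ornithine decarboxylase, was higher (0.31, q = 0.0025), but not with library-size scaling (q = 0.017) or without KO_Empty_17KR and KO_Empty_61KR (q = 0.046). The synthases *Sms* (0.14, q = 0.16) and *Srm* (−0.20, q = 0.41) were not called.

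Growth of muscle is held back by myostatin and activins and promoted by bone morphogenetic proteins. Of 26 of these ligands, receptors and antagonists none was called by edgeR, DESeq2 or limma-voom, 7 had an unadjusted p under 0.05 (25.2% over all genes), and the median was 0.00 (−0.03 with library-size scaling). *Mstn*, myostatin, was at 77.9, 70.2, 56.3, 51.0 and 59.7 CPM in controls and between 53.7 and 93.4 CPM with DHT (0.29 ± 0.14, q = 0.18), with overlap. *Fst*, the antagonist follistatin, had a value of 0.19.

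The insulin-like growth factor pathway, which acts through AKT and mTOR on protein synthesis, had 3 of 25 genes lower and none higher (median −0.04). *H19*, whose locus controls imprinting of *Igf2*, was among these. *Akt1* (−0.29, q = 0.0051) and the receptor gene *Igf1r* (−0.34, q = 0.010) were called in 4 and 3 of the 11 fits that left out 1 library, with q values up to 0.019 without KO_Empty_64KR and 0.033 without KO_Empty_17KR. *Igf1*, the ligand made in muscle, was at 48.4, 34.3, 37.4, 34.4 and 38.1 CPM and between 33.8 and 44.4 CPM with DHT (−0.02 ± 0.14, q = 0.96).

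Atrophy genes code for ubiquitin ligases, proteases and the factors that switch them on. Of 19 of these, 1 was higher and 2 were lower (median −0.01). *Foxo3* encodes the transcription factor that activates atrophy genes and was at 43.0, 41.7, 38.8, 42.4 and 41.5 CPM in KO-empty mice. Treated mice had between 24.1 and 29.5 CPM, with a wide gap between the groups (−0.60 ± 0.07, q = 2e-06). The ligase genes *Trim63* and *Fbxo32*, also known as MuRF1 and atrogin-1, nonetheless overlapped fully. *Trim63* was between 148 and 219 CPM without and between 142 and 211 CPM with DHT (−0.03 ± 0.17, q = 0.94), and *Fbxo32* between 165 and 233 CPM and between 162 and 257 CPM (0.01 ± 0.16, q = 0.98). The protease gene *Ctsl* (−0.29, q = 0.0089) and the ligase gene *Fbxo21* (0.48, q = 0.0092) kept their calls in 1 and 3 of the 11 fits without 1 library. Their largest q values were 0.023 without KO_DHT_25KR and 0.031 without KO_Empty_61KR.

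Fibre type was described by 17 genes of slow and 16 of fast fibres. Slow fibre genes had values below 0 in 15 of 17 cases, with a median of −1.04 (−1.06 with library-size scaling), but mice differed widely. By edgeR 2 were called, by DESeq2 3 and by limma-voom 4, with 14 at an unadjusted p under 0.05 (25.2% over all genes), and leaving out 1 library gave between 1 and 6 calls. *Myh7*, the slow myosin heavy chain, was at 288, 453, 583, 685 and 726 CPM in controls and between 54.6 and 355 CPM with DHT (median 92.2). At least 1 treated mouse was above the lowest control, and the gene did not pass the threshold (−1.94 ± 0.54, q = 0.022). *Casq2*, the calsequestrin that stores calcium in slow fibres and heart, was at 63.8, 52.6, 104, 56.4 and 53.2 CPM and between 24.6 and 39.3 CPM, without overlap (−1.08 ± 0.16, q = 9.2e-05). *Tpm3*, slow tropomyosin, fell from between 93.1 and 188 CPM to between 30.9 and 105 CPM (−1.47 ± 0.36, q = 0.0089), and its call was kept in 2 of the 11 fits without 1 library (q up to 0.024 without KO_Empty_61KR). The regulatory light chain *Myl2* (−1.56 ± 0.41, q = 0.015) and slow troponin I, *Tnni1* (−1.98, q = 0.017), had similar values. The sum of the slow genes was between 3244 and 4837 CPM in the controls and between 2141 and 3534 CPM in treated mice. Fewer slow fibres and less of their RNA per fibre cannot be told apart in bulk muscle, which holds for every cell type below.

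Of the fast fibre genes, 4 were higher and the median was 0.12. That median was 0.07 without KO_Empty_61KR and 0.04 without KO_Empty_17KR and KO_Empty_61KR. *Myh4*, the myosin of the fastest fibres, was at 67838, 79493, 68101, 61310.4 and 70928 CPM in KO-empty and between 63247 and 69605 CPM in KO-DHT muscle (−0.08 ± 0.08, q = 0.59). The light chain *Myl1* was called (0.29, q = 0.0088), as were fast troponin I and C, *Tnni2* (0.36, q = 0.0044) and *Tnnc2* (0.69, q = 0.0054), and the Z-disc protein *Myoz1* (0.32, q = 0.0053). These 4 kept their calls in 1, 4, 5 and 4 of the 11 fits without 1 library, and without KO_Empty_61KR and KO_Empty_17KR none was called. Of 24 Z-disc genes *Myoz1* was the only one called, near the 4.62% of all genes, with a median of −0.07. *Actn2*, the α-actinin that these mice retain, was between 346 and 443 CPM in controls and between 313 and 433 CPM with DHT (−0.08, q = 0.76).

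Embryonic proteins and those of the neuromuscular junction return to fibres that lose their nerve. Of 22 such genes, 2 were higher and 5 lower (median −0.09, and between −0.12 and −0.01 when 1 library was left out). *Musk*, the receptor kinase that gathers acetylcholine receptors at the junction, was at 14.1, 13.6, 12.4, 12.6 and 9.49 CPM and rose to between 23.8 and 28.9 CPM, apart from the controls (1.07 ± 0.13, q = 2.8e-06). *Ache*, acetylcholinesterase, was at 17.4, 20.9, 18.1, 14.3 and 16.3 CPM and rose to between 27.5 and 35.7 CPM (0.86 ± 0.11, q = 8.4e-06). *Fgfbp1*, a secreted carrier of fibroblast growth factors that supports the junction, fell from 1.15, 2.16, 1.32, 3.06 and 1.75 CPM to between 0.201 and 0.658 CPM (−2.03 ± 0.24, q = 3.5e-06). *Ncam1*, the adhesion molecule of denervated and regenerating fibres, fell from between 7.16 and 11.5 CPM to between 3.82 and 5.09 CPM (−1.07 ± 0.12, q = 9.4e-07). *Gadd45a*, a stress gene induced by denervation, was lower as well (−0.61, q = 0.0012). *Ngfr*, the neurotrophin receptor p75, was at 3.34, 7.67, 6.19, 1.05 and 1.47 CPM in controls and at most 1.21 CPM with DHT, with some overlap (−2.46 ± 0.49, q = 0.002), and was not called by limma-voom (q = 0.029). *Myh8*, perinatal myosin, overlapped too (−1.38 ± 0.29, q = 0.0031) and was not called without KO_Empty_17KR (−1.08, q = 0.016) or without KO_Empty_64KR.

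Satellite cells and their differentiation were covered by 21 genes, of which none was higher and 2 were lower, against 1.75% of all genes (median −0.03). *Pax7*, the factor of satellite cells, had a value of 0.04, and the myogenic factors *Myod1* and *Myog* each one of −0.07. *Tceal7*, which restrains proliferation of myoblasts, was at 71.8, 77.4, 72.3, 51.6 and 41.7 CPM and fell to between 18.8 and 49.0 CPM, with overlap (a ratio of the means of 0.501, q = 0.0025). *Megf10*, a receptor of satellite cells, was lower (−0.96, q = 0.0048) but called in 6 of the 11 fits without 1 library (q = 0.020 without KO_Empty_64KR). Neither was called without KO_Empty_17KR and KO_Empty_61KR, where *Tceal7* had q = 0.011.

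Calcineurin is the phosphatase that carries calcium signals to slow fibre genes and is tethered at the Z-disc by calsarcins. Of 14 genes 2 rose and 1 fell, with a median of 0.01 that was −0.02 with library-size scaling. *Rcan1*, an inhibitor that calcineurin itself induces, was at 74.8, 56.9, 45.2, 37.1 and 47.3 CPM in controls and from 82.0 to 148 CPM with DHT, all above the controls (1.06 ± 0.18, q = 0.00048). Its relative *Rcan2* went from 39.1, 35.1, 35.5, 42.2 and 39.9 CPM to between 58.9 and 79.9 CPM (0.83 ± 0.09, q = 4.3e-07). The catalytic subunit *Ppp3ca* fell from 284, 299, 255, 272 and 238 CPM to between 185 and 225 CPM (−0.37 ± 0.07, q = 0.0012). These 3 calls were kept in all 11 fits that left out 1 library, but *Ppp3ca* was not called without KO_Empty_17KR and KO_Empty_61KR (−0.34, q = 0.019).

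Mitochondria make most of the ATP of oxidative fibres. Of 36 complex I genes 6 rose and none fell, 35 had values above 0 and the median was 0.18. *Ndufs4*, an accessory subunit needed for assembly of the complex, was at 141, 142, 148, 145 and 151 CPM in controls and between 179 and 208 CPM with DHT, with no overlap (0.43 ± 0.06, q = 6.5e-05). *Ndufv2*, of the electron input module, rose as well (0.35, q = 0.0011). Of 41 genes for complexes II to V, 8 rose and none fell, with 40 above 0 and a median of 0.20. *Uqcrc1*, a core protein of complex III, was at 533, 548, 577, 470.0 and 652 CPM without and between 712 and 802 CPM with DHT (0.46 ± 0.07, q = 0.00015). *Cox7a1*, the muscle isoform of a complex IV subunit, rose from between 166 and 224 CPM to between 254 and 299 CPM (0.52 ± 0.09, q = 0.00032). *Atp5g1*, a subunit of the rotor ring of ATP synthase, rose to between 288 and 318 CPM from at most 258 CPM (0.39 ± 0.06, q = 0.00018). Leaving out 1 library gave between 3 and 13 calls in each of these lists, and leaving out KO_Empty_17KR and KO_Empty_61KR gave 1 of complex I and 3 of the others. Of 7 genes of the mitochondrial genome, *mt-Co1* of complex IV was called (0.42 ± 0.07, q = 0.00021). It was at 15482, 15674, 16762, 16484 and 15692 CPM in the controls and at least 19451 CPM with DHT.

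Fuel reaches the respiratory chain through the citrate cycle and the oxidation of fatty acids. Of 30 genes of the citrate cycle and pyruvate entry 7 rose and none fell (median 0.17). *Idh3g*, a regulatory subunit of isocitrate dehydrogenase, was at 197, 217, 206, 183 and 225 CPM and between 254 and 283 CPM with DHT (0.38 ± 0.07, q = 0.0014). *Pdp1*, the phosphatase that activates pyruvate dehydrogenase, rose with overlap (0.52, q = 0.00073). Fatty acid oxidation had 5 of 31 genes higher and none lower (median 0.20), of which 1 was called with library-size scaling, and *Slc25a20*, the carrier of acylcarnitines, went from between 63.6 and 86.6 CPM to between 94.4 and 108 CPM (0.44 ± 0.08, q = 0.00099). Of 32 genes for making and shaping mitochondria 5 were higher (median 0.11). *Esrra*, a nuclear receptor that drives genes of oxidative metabolism, was at 60.3, 65.1, 64.2, 51.0 and 68.9 CPM and rose to between 82.3 and 103 CPM (0.56 ± 0.09, q = 0.00015), while its coactivator *Ppargc1a* overlapped (0.25 ± 0.12, q = 0.20). Without KO_Empty_17KR and KO_Empty_61KR, calls fell to 1 for the citrate cycle, 0 for fatty acid oxidation and 2 for the mitochondrial genes, with medians of 0.11, 0.18 and 0.08.

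Glycolysis and the creatine system, which supply ATP in bursts, had 2 of 41 genes higher and none lower (median 0.09), close to the 4.62% called of all genes. *Ckmt2*, the creatine kinase of mitochondria, was at 693, 695, 859, 807 and 892 CPM and rose to between 1106 and 1486 CPM, apart from the controls (0.73 ± 0.09, q = 3.2e-06). *Phkb*, a subunit of phosphorylase kinase, was called (0.26) in 3 of the 11 fits without 1 library (q = 0.031 without KO_Empty_61KR). None of 25 genes of purine metabolism was called by edgeR or limma-voom and 1 was by DESeq2, with 7 at an unadjusted p under 0.05, near the 25.2% of all genes, and a median of −0.03. *Ampd1*, the AMP deaminase of muscle, was between 986 and 1320.2 CPM without and between 1044 and 1237 CPM with DHT (−0.03 ± 0.09, q = 0.86).

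Of 42 genes for transport and metabolism of amino acids, 3 were higher and 2 lower (median −0.04). *Slc15a5*, a member of the peptide transporter family, was at 0.0855, 0.0864, 0.461, 1.39 and 0.631 CPM and rose to between 2.81 and 7.01 CPM (3.04 ± 0.45, q = 7.4e-05). *Dbt*, a subunit of the enzyme complex that breaks down branched-chain amino acids, was at 41.9, 41.1, 43.5, 40.9 and 43.2 CPM and fell to between 26.3 and 33.2 CPM (−0.53 ± 0.08, q = 0.00012). *Shmt1*, which moves carbon from serine to folate, fell from between 11.9 and 18.2 CPM to between 6.74 and 9.30 CPM (−0.86 ± 0.12, q = 2.8e-05). For these 3 genes the groups did not overlap. *Ahcy*, which clears the product of methylation reactions, was higher (0.47, q = 0.0018).

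**Figure D3:**
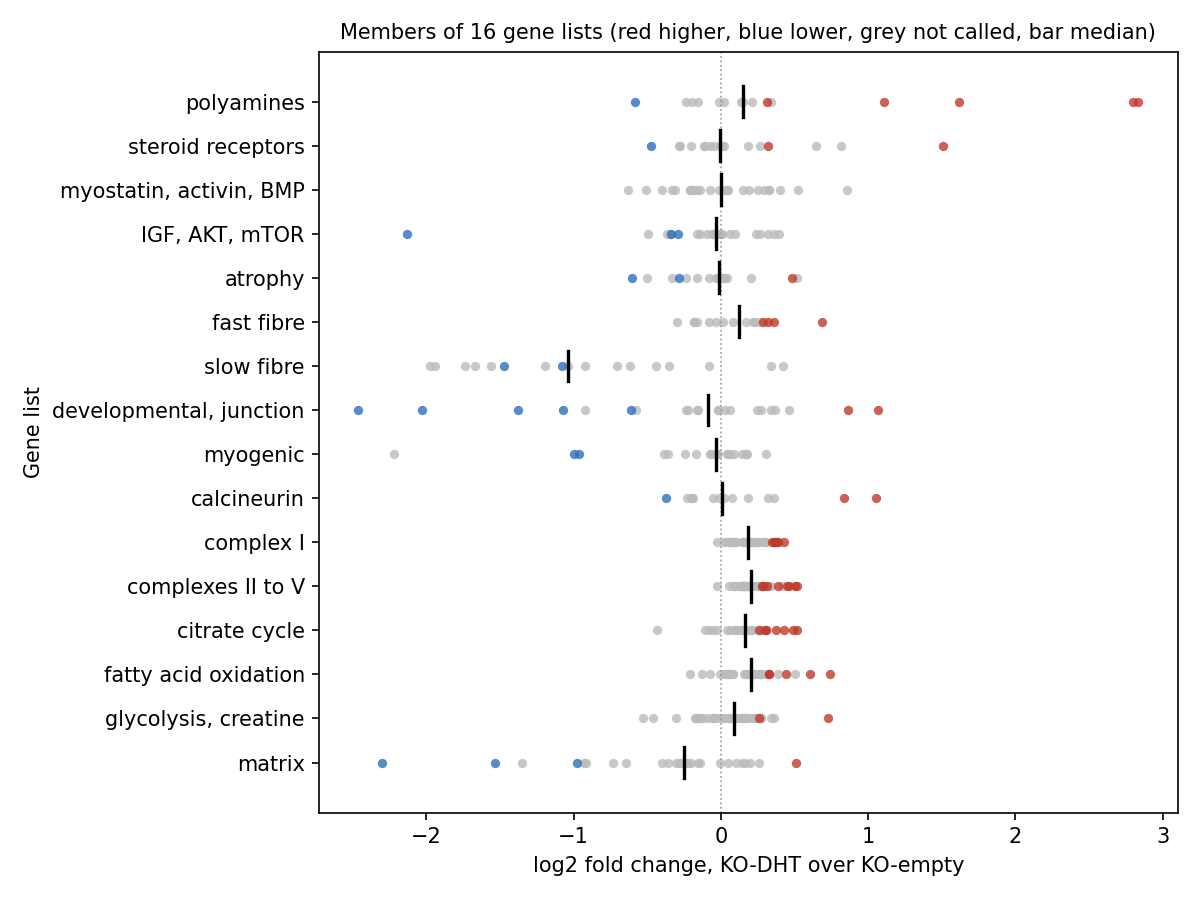
Log2 fold changes of the members of 16 gene lists, KO-DHT over KO-empty, with called genes in red (higher) or blue (lower) and the median of each list as a bar. The median was −1.04 for slow fibre genes and between 0.17 and 0.20 for complex I, complexes II to V, the citrate cycle and fatty acid oxidation.

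Autophagy genes, which remove damaged organelles, had 2 of 32 members higher and 1 lower (median 0.00), against 2.86% and 1.75% of all genes. *Sqstm1*, the cargo receptor p62, was at 361, 344, 317, 347 and 452 CPM and between 451 and 580.2 CPM with DHT, so that only KO_Empty_62KR touched the treated range (0.49 ± 0.09, q = 0.00049). *Map1lc3a*, a protein of the autophagosome membrane, rose too (0.43 ± 0.08, q = 0.00058). Of 39 genes for growth factor receptors and MAP kinases 2 were higher and none lower (median 0.06), a share near the 4.62% of all genes. *Egfr*, the receptor of epidermal growth factor, was at 37.8, 42.5, 36.7, 26.9 and 27.8 CPM and rose to between 48.9 and 75.8 CPM (0.78 ± 0.14, q = 0.0006).

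The extracellular matrix carries force from fibres to tendon. Of 26 matrix genes 1 was higher and 3 were lower (median −0.25). *Lum*, a proteoglycan that spaces collagen fibrils, was at 66.1, 42.7, 46.8, 45.7 and 38.9 CPM and fell to between 19.9 and 29.7 CPM (−0.98 ± 0.14, q = 5.3e-05). *Postn*, a matrix protein of remodelling tissue, was at 93.9, 22.3, 48.8, 46.5 and 38.4 CPM and fell to between 12.7 and 23.3 CPM (−1.54 ± 0.25, q = 0.00021), with overlap at KO_Empty_33KR. *Timp1*, an inhibitor of matrix proteases, was lower (−2.30 ± 0.47, q = 0.0026) but not without KO_Empty_17KR (−2.01, q = 0.012). *Dcn*, decorin, was at 397, 359, 393, 442 and 418 CPM and rose to between 495 and 649 CPM (0.51 ± 0.11, q = 0.0052), a call kept in 5 of the 11 fits without 1 library (q up to 0.017 without KO_Empty_33KR). The fibrillar collagen gene *Col1a1* did not pass (−1.35, q = 0.014).

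None of 18 clock genes was called by edgeR, DESeq2 or limma-voom, with 2 at an unadjusted p under 0.05, a smaller share than the 25.2% of all genes. Their median was 0.11, and between −0.0082 (without KO_Empty_17KR) and 0.19 (without KO_Empty_62KR) when 1 library was left out. Of 24 early-response and stress genes 2 were higher and 1 lower (median 0.21). *Myc*, the transcription factor of cell growth, was at 7.85, 6.65, 5.73, 1.95 and 5.19 CPM and fell to between 1.51 and 2.47 CPM, with KO_Empty_61KR within the treated range (−1.48 ± 0.23, q = 0.00014). *Hspb8*, a small heat shock protein of muscle, rose (0.41, q = 0.0011). *Fos*, an early-response transcription factor, rose by 0.98 ± 0.22 (q = 0.0053) and was called in 5 of the 11 fits without 1 library (q up to 0.019 without KO_Empty_61KR). Of 17 genes that glucocorticoids control 2 were lower and none higher. Their median of 0.07 had no stable sign and lay between −0.08 (without KO_DHT_40KR) and 0.14 (without KO_Empty_17KR) when 1 library was left out. *Sesn1*, an inhibitor of mTOR complex 1, was at 59.2, 50.7, 46.7, 50.7 and 70.6 CPM and fell to between 28.4 and 40.0 CPM, apart from the controls (−0.72 ± 0.12, q = 0.00038). *Cdkn1a*, the cell cycle inhibitor p21, fell by 1.51 ± 0.34 (q = 0.0057) with separate groups, and its call was kept in 4 of the 11 fits (q up to 0.016 without KO_DHT_25KR).

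Whole muscle contains blood vessels, fat, nerve and connective tissue, and markers of 11 other cell types were followed. Endothelial genes had 1 of 8 higher, *Tie1*, a receptor kinase of vessels (0.40, and 0.34 with q = 0.016 without KO_Empty_61KR). Their sum was between 237 and 303 CPM in controls and between 269 and 346 CPM with DHT, and *Pecam1* was the most abundant. Smooth muscle and pericyte genes had 1 of 7 higher, the most abundant one, *Rgs5* (0.34, and 0.30 with q = 0.013 without KO_Empty_61KR), and a sum of 352 to 455 CPM without and 463 to 545 CPM with DHT. Fibroblast genes had *Dcn* higher and *Lum* lower among 9, with *Gsn* as the most abundant and sums of 2664 to 3847 and 2833 to 3776 CPM.

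In the other marker lists edgeR called no gene. Macrophage genes (9, most abundant *Lyz2*, 1 at an unadjusted p under 0.05, 1 called by DESeq2 and 0 by limma-voom) summed to 256, 166, 236, 447 and 232 CPM in controls and to between 205 and 265 CPM with DHT. Their median of −0.14 was 0.11 without KO_Empty_61KR, the highest library. Red cell genes (5, most abundant *Hbb-bs*, 1 at p under 0.05, 0 by DESeq2 and limma-voom) summed to 281, 99.9, 168, 704 and 158 CPM and to between 153 and 217 CPM. Their median was −0.51, and 0.12 without KO_Empty_61KR. Tendon genes (7, most abundant *Thbs4*, 2 at p under 0.05, 0 by the other tools) all had values below 0, with a median of −0.52 and sums of 143, 82.3, 160.5, 154 and 178 CPM against 67.5 to 185 CPM. White fat genes (9, most abundant *Cfd*, 3 at p under 0.05, 0 by the other tools) had a median of −0.12 that was −0.28 without KO_DHT_63KR and 0.0025 without KO_DHT_65KR, and sums of 674 to 1154 CPM against 541 to 1259 CPM. Brown fat genes (5, most abundant *Gmpr*, 0 at p under 0.05 and by the other tools) had a median of 0.40 that was −1.60 with limma-voom and −2.31 without KO_DHT_63KR, where 1 of the 5 was called. Their sum was 110 to 174 CPM in controls and 129 to 352 CPM with DHT.

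Schwann cell genes (8, most abundant *Pmp22*) had a median of −0.10, lymphocyte genes (3, most abundant *Cd3e*) one of −0.36 and keratinocyte genes (2, with *Trp63* the more abundant) one of −0.04, with 0 at an unadjusted p under 0.05 and 0 called by DESeq2 or limma-voom. Lymphocyte sums were at most 3.56 CPM, with *Cd3d*, *Cd79a*, *Ms4a1* and *Cd8a* absent from the table. Of the keratins *Krt5*, *Krt14* and *Krt15* none was in the table. Among precursor genes of red cells *Slc4a1* was lower (−4.55 ± 0.84, q = 0.0009), with groups that overlapped, and it was not called without KO_Empty_17KR and KO_Empty_61KR. *Alb* was the 1 called gene of 3 liver genes, whose most abundant member was *Trf*. The part of other cell types in the responses above was not tested.

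Genotype was compared through the interaction, the KO response minus the WT response, called at q of 0.05 or less. In WT muscle 1914 genes (11.3%) were called, and the interaction was called for 550 genes (3.24%). Of the 784 genes of the KO response 134 (17.1%) had an interaction. The KO response was the smaller in 100 of them and the larger in 34. In 29 of the 134 the KO and WT changes had opposite signs. The KO mice enter both the KO response and the interaction, so the 2 are not independent.

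Larger KO responses included genes with little change in WT mice. *Mib1*, a ubiquitin ligase that activates Notch ligands, was at 105, 120.1, 85.5, 93.7 and 92.8 CPM in KO-empty and between 144 and 191 CPM in KO-DHT mice, apart from each other (0.72 ± 0.09, q = 4.4e-06). In WT its change was −0.16 and the interaction 0.88 (q = 8.7e-05). *Ache* had 0.02 in WT and an interaction of 0.85 (q = 0.0015). *Nmt2*, which attaches myristate to proteins, rose in KO from between 28.4 and 40.4 CPM to between 46.4 and 56.7 CPM (0.51 ± 0.08, q = 0.00022; WT −0.15, interaction 0.67, q = 0.0012). *Fam69c*, a kinase-like protein gene, rose by 2.62 ± 0.22 in KO (q = 1.3e-08) and by 1.04 in WT (interaction 1.59, q = 0.0024). *5031439G07Rik* was at most 131 CPM in controls and at least 159 CPM with DHT (0.51 ± 0.06, q = 4.6e-06), with −0.02 in WT and an interaction of 0.53 (q = 0.00048). *H19* fell further in KO than in WT (−2.13 against −1.12, interaction −1.01, q = 0.0058), from a mean of 566 CPM in WT-empty mice, and so did *Sel1l3* (−0.96 against −0.36, interaction −0.60, q = 0.0014).

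Smaller KO responses were led by *Gstm2*, a glutathione transferase. It fell in KO from 39.8, 49.0, 42.5, 40.4 and 48.1 CPM to between 22.9 and 30.4 CPM (−0.75 ± 0.09, q = 6.3e-06), and in WT from a mean of 50.7 to 8.87 CPM (−2.51; interaction 1.76, q = 1.3e-08). *Cacna2d4*, an accessory subunit of calcium channels, was at 1.56, 1.17, 1.54, 1.16 and 0.958 CPM and rose to between 2.66 and 3.60 CPM in KO (1.36 ± 0.16, q = 3.2e-06), and in WT from a mean of 1.35 to 25.4 CPM (4.23; interaction −2.87, q = 1.5e-08). *Slc25a30*, a mitochondrial carrier, rose to between 12.5 and 26.9 CPM from at most 10.3 CPM (1.07 ± 0.17, q = 0.00019), against a WT mean of 135 CPM with DHT (3.96; interaction −2.89, q = 3.2e-08). *Ntmt1*, a methyltransferase of protein N-termini, gave 0.73 ± 0.10 in KO (q = 1.7e-05) and 2.34 in WT (interaction −1.61, q = 4.1e-08). *Anxa7*, a calcium-dependent membrane-binding protein, gave 0.54 ± 0.06 (q = 1.5e-06) and 1.52 (interaction −0.98, q = 7.6e-08).

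Among the androgen response genes above, the KO change was smaller for *Cdk19* (1.86 against 2.86 in WT, interaction −1.002, q = 3.8e-06), *Odc1* (1.11 against 2.32, −1.21, q = 9.9e-05) and *Smox* (1.62 against 3.06, −1.45, q = 0.00012). It was also smaller for *Amd1* (2.80 against 3.45, −0.65, q = 0.0061), *Musk* (1.07 against 2.04, −0.97, q = 0.0013) and *Casr* (−1.14 against −3.03, 1.88, q = 1.2e-07). No interaction was called for *Actr3b* (−0.40, q = 0.54), *C7* (0.85, q = 0.22), *Lrtm1* (0.12, q = 0.88) or *Foxo3* (0.04, q = 0.90). A list of 8 genes was chosen by the study itself for a genotype interaction with DHT, in these samples, and also with ORX in male gastrocnemius. All 8 had an interaction here, which is no independent evidence. In KO muscle 2 were higher and none lower, with a median of 0.02 (−0.01 with library-size scaling). *Spns2*, a transporter of sphingosine 1-phosphate, was at 16.3, 18.8, 16.7, 13.0 and 18.1 CPM and rose to between 30.6 and 42.2 CPM (1.10 ± 0.11, q = 2.1e-07; WT 2.14). *Ttll7*, a ligase that adds glutamate to tubulin, was higher (0.42, q = 0.0073) in 3 of the 11 fits without 1 library (q up to 0.025 without KO_Empty_64KR). *Mybph*, a myosin-binding protein, was at 265, 359, 303, 239 and 353 CPM in KO-empty and between 182 and 221 CPM in KO-DHT mice. Though separate, the groups did not pass the threshold (−0.58 ± 0.18, q = 0.038), and the WT change was −4.59 (interaction 4.01, q = 2.2e-09).

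Orchidectomy removes the main source of androgen in males, and its effect in KO gastrocnemius was set beside that of DHT. It was followed by calls for 975 of 17514 genes (5.57%), 348 higher and 627 lower. Of the 784 genes of the DHT response 755 were in that table and 302 were called in both experiments, which is 38.5% of the DHT list and 31.0% of the ORX list. All 302 went in opposite directions, 230 higher with DHT and lower after ORX and 72 the reverse. The experiments differed in mice, sex, muscle, age at treatment and time to sampling as well as in treatment. The parts of these in a difference between the responses cannot be told apart. With library-size scaling 199 genes were called in both experiments, all opposite, and with DESeq2 440 of 444 were opposite.

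*Amd1* fell by 2.31 after ORX (q = 1.4e-14), *Cdk19* by 1.53 (q = 8.9e-14) and *C7* by 3.71 (q = 1.1e-09). *Sult1e1* (−8.87, q = 1.4e-07), *Slc30a2* (−3.60, q = 9.9e-11), *Slc15a5* (−4.01, q = 1.1e-09) and *Smox* (−1.64, q = 3e-10) fell as well. Of the genes lowered by DHT, *Stc2* rose by 1.45 after ORX (q = 2.1e-06), *Sesn1* by 1.06 (q = 1.6e-10), *Casr* by 0.98 (q = 0.0014), *Grb10* by 0.69 (q = 4.6e-05) and *Foxo3* by 0.62 (q = 0.0014). *Ckmt2* (−0.67, q = 4e-06), *mt-Co1* (−0.48, q = 2.2e-05) and *Esrra* (−0.46, q = 1.3e-05) of energy metabolism were lower after ORX. *Lrtm1* (0.28, q = 0.23) and *H19* (0.29, q = 0.32), among the clearest falls with DHT, did not pass after ORX, and neither did *Ache* (0.06, q = 0.84).

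**Figure D4:**
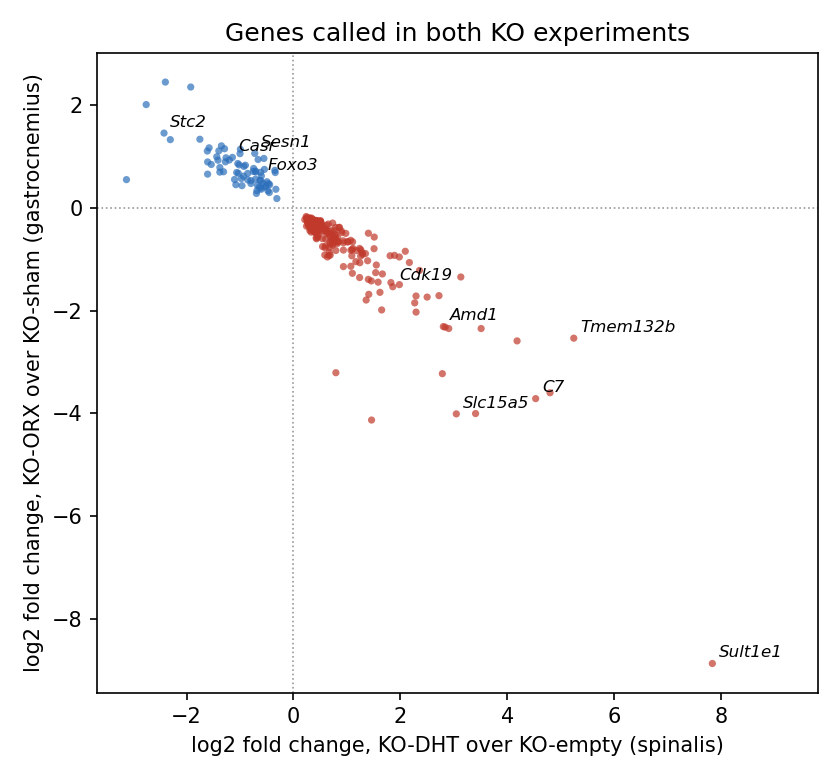
Log2 fold changes of the 302 genes called in both KO experiments, DHT against empty implant in spinalis and ORX against sham operation in gastrocnemius. Of these, 230 were higher with DHT and lower after ORX, and 72 were lower with DHT and higher after ORX.

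Promoters of the responding genes were searched for the hexamer AGAACA of androgen-responsive sites. RefSeq promoters of build GRCm38.p6, 250 bases before to 50 after the start of a gene, were found for 358 of the genes called higher and 207 of those called lower. The letters occurred on either strand in 66 of the first (18.4%), in 28 of the latter (13.5%) and in 1694 of the 11118 tested genes with a promoter (15.2%). A gene with several promoters counted once, if any of them held the letters. The hexamer followed after 3 bases by its inverted copy, TGTTCT, occurred in none of the called genes and in 1 gene of all. Of the 24 genes with the smallest q values 15 had a promoter in the table, and only that of *Lrtm1*, the gene with the smallest q value among the falls, held the hexamer. Its promoter at chr14:29017958-29018257 is shown for that reason, on the plus strand of GRCm38.p6, with the match, TGTTCT as the reverse complement of AGAACA, in capitals. A match is a description and not a binding site.
*Lrtm1* promoter: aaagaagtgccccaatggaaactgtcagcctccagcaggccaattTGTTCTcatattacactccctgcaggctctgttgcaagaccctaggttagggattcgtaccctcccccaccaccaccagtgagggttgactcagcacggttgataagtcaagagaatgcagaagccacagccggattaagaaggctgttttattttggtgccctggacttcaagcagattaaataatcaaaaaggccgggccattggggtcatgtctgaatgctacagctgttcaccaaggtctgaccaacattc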

How the data were processed

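RNA of whole muscle was sequenced from stranded total RNA libraries. The deposited values are counts of reads per gene that the authors made with STAR 2.7.1b, SAMtools 1.9, Picard 2.20.2 and featureCounts of Subread 2.0.0. The submitters' notes give build GRCm39, and genes were named here through GENCODE M21 of GRCm38, so no gene coordinates are taken from the counting, and 16920 of the 16987 genes matched. The strand setting of the counting and the annotation release are not given in the sources used here. Columns of the DHT table could be assigned to a group and not to a single labelled mouse.

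Counts were fitted with edgeR 4.0.16 in R 4.3.3, with TMM normalization, a mean for each of the 4 groups of 22 libraries and quasi-likelihood F tests. The p-values were adjusted by the Benjamini-Hochberg method over all genes and measure spread between mice. A filter of 0.5 CPM in 2 libraries removed 0 genes. The 11 fits mentioned in the text each left out 1 KO library. DESeq2 1.42.0 and voom of limma 3.58.1, scaling by library size, at least 10 counts required of each library, a fit of the KO libraries and a threshold of 0.05 were the other alternatives. Fits without KO_Empty_17KR and KO_Empty_61KR, alone or with KO_DHT_63KR left out too, were chosen after seeing the data, as were the tool alternatives for the genes called with both DHT and ORX. The promoter sequence and its position come from RefSeq on GRCm38.p6. The code was tested on simulated data. The plots used Python 3.11.15 with matplotlib 3.10.9.

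Named genes were *Actn3* and, in each direction, the 12 called genes with the smallest p-values and the 6 with the largest fold changes at a mean of at least 1 CPM in either KO group. They were also the 6 called genes with the smallest interaction p-values on each side, those larger in KO and those smaller, called members of the lists and up to 4 uncalled members per list. The members and lists were chosen with earlier results of these data known. The lists of granulocyte, red cell precursor, interferon-inducible and liver genes were chosen after seeing the data, and *Fst*, *Tnni1*, *Myog* and the most abundant markers were named after their values were seen. Muscle mass, protein and histology were not analysed.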

Additional observations from a re-analysis of the deposited data

Results flagged for a closer look

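Single libraries far from the rest of their group by Dixon's criterion were found in 9 of 84 group tests of 42 named genes and in 3 of 32 tests of summed lists. Chance gives about 1 in 20 groups, but some of these genes and lists were chosen for values that such libraries produce, so the counts are no test of a pattern. Over all genes with enough counts, KO_Empty_61KR was the high library apart for 283 of 13800 (2.05%), KO_Empty_62KR for 189 (1.37%) and KO_Empty_17KR for 58. In KO_Empty_61KR interferon-inducible genes were high, with *Gm4841* at 2194 CPM, *Gm12185* at 373 CPM and a list sum of 8989 CPM. In KO_DHT_63KR, *Alb* was at 74.3 CPM, brown adipocyte markers summed to 352 CPM and *Lrtm1*, at 4.93 CPM, was the highest of the treated mice. Other high values were 0.0935 CPM for *Sult1e1* in KO_Empty_62KR, 33.6 CPM for *Sel1l3* in KO_DHT_6KR and 54.8 CPM for *Grb10* in KO_DHT_40KR. *Chil3* at 0.359 CPM in KO_DHT_65KR and a keratinocyte marker sum of 23.5 CPM in KO_DHT_40KR were high for their group too. *Cacna2d4* was low in KO_DHT_65KR, at 2.66 CPM.

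The responses of KO and WT mice differed by the interaction test for 24 of the 42 named genes, given here as KO minus WT on the log2 scale. Up to 12 of the 42 were chosen for a small interaction p-value, so the count is a description, beside 550 of 16987 genes (3.24%) in all. Polyamine genes gave −0.59 (*Amd-ps3*), −0.65 (*Amd1*) and −0.59 (*Amd2*), and *Cdk19* gave −1.002. For *H19* the difference was −1.01, for *Sel1l3* −0.60, for *Stc2* 1.44, for *Grb10* 0.53, for *Casr* 1.88 and for *Tmem52* 0.84. Granulocyte genes, high in 2 KO-empty libraries, gave −10.81 (*Camp*), −10.34 (*Ltf*), −8.83 (*Ngp*) and −8.28 (*Chil3*). Their WT values, none called, were 4.34, 4.58, 3.27 and 3.24 and add to these differences. Genes with larger responses in KO muscle were *Mib1* (0.88), *5031439G07Rik* (0.53), *Nmt2* (0.67), *Ache* (0.85) and *Fam69c* (1.59). Smaller responses were those of *Gstm2* (1.76), *Cacna2d4* (−2.87), *Slc25a30* (−2.89), *Ntmt1* (−1.61) and *Anxa7* (−0.98). The causes were not tested.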

How the results depend on the processing

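With DESeq2, 1201 genes were called, 477 of them lower, and 208 of the called genes had an interaction. DESeq2 called 777 of the 784 genes, limma-voom 676 and library-size scaling 594. A fit of the KO libraries alone called 505 (312 higher, 193 lower), and a threshold of 0.05 called 1840 (1038 and 802). Leaving out 1 library gave between 533 and 870 calls, with falls from 187 without KO_DHT_25KR to 326 without KO_Empty_62KR. Without KO_Empty_17KR and KO_Empty_61KR there were 368 calls (226 higher, 142 lower), 63 of them with an interaction, and with KO_DHT_63KR also left out 358 (220 and 138), 57 with an interaction. These 2 fits and the following count were chosen after seeing the data. Genes called with both DHT and ORX numbered 199 with library-size scaling, all 199 opposite. The looser threshold gives more calls by construction, and for the other settings the cause was not tested.

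Direction turned in 9 of the values of named genes. *Actn3*, not called, was between −0.10 and 0.034 when 1 library was left out, above 0 without KO_Empty_33KR (0.034) and KO_Empty_64KR (0.01). Without KO_Empty_17KR and KO_Empty_61KR *Ltf* was 0.67, *Chil3* 0.55 and *Gm4841* 0.31, and with KO_DHT_63KR also left out 0.38, 0.49 and 0.29. *Gm4841* was between −5.03 and 0.48 when 1 library was left out, the latter without KO_Empty_61KR. Of the other values 1915 kept direction and side of the threshold and 456 kept direction but no longer passed. Beside the changes given with the results, *Igf1r*, *Fbxo21*, *Ctsl*, *Myl1*, *Tpm3*, *Dcn* and *Tie1* lost their calls with library-size scaling, and *Igf1r*, *Fbxo21* and the granulocyte genes *Camp*, *Ltf*, *Ngp* and *Chil3* with limma-voom, as did *Alb* and *Gm4841*. The fit of the KO libraries alone ended those of *Akt1*, *Tceal7*, *Pdp1*, *Ahcy*, *Timp1* and *Rgs5* among others. Without KO_Empty_17KR and KO_Empty_61KR, *Gadd45a*, *Ndufv2*, *Idh3g*, *Slc25a20*, *Ahcy*, *Map1lc3a*, *Hspb8*, *Fos*, *Cdkn1a*, *Dcn* and *Ttll7* were among the genes no longer called.

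The medians of the lists for steroid receptors, growth ligands, atrophy, satellite cells, calcineurin, autophagy, the clock, glucocorticoid targets, the study's genes and muscle, white and brown fat, macrophage, red cell and keratinocyte markers changed sign in at least 1 fit without a library, so they give no direction.

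No paired analysis was possible because the labels pair no mice. The 0.5 CPM filter removed 0 genes, so leaving the filter out could not give a different value, and the filter of 10 counts in every library left out *Tmem132b*, *Sult1e1* and other scarce genes. With 5 and 6 mice the groups show spread between mice and not its causes, and genes under 1 CPM (42 of the called) rest on few counts.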
